A study of Sus scrofa with 10 samples.

Results

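The liver arrays of backcross pigs measured 39 genes of the proteasome among 4730 genes in all. A gene was taken as a proteasome gene if a probe set carried its symbol alone, the symbol began with PSMA, PSMB, PSMC, PSMD, PSME, PSMF or PSMG, and the mean log2 value of at least 1 such probe set over the 10 arrays was 4 or more. By their place in the particle, 7 of the 39 genes encode the alpha rings of the 20S core, 7 the constitutive subunits of its beta rings, 3 subunits that interferon induces, 5 the ATPases of the 19S cap, 10 its other subunits, 3 further activators or an inhibitor of the core, and 4 chaperones of its assembly.

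The proteasome is the protease that degrades most ubiquitin-tagged proteins of the cytosol and nucleus. Its core is a barrel in which alpha rings form the gate and beta rings hold the active sites, and the 19S cap binds ubiquitin, unfolds the protein with its ATPases and feeds it into the core. Interferon gamma induces PSMB8, PSMB9 and PSMB10, which take the place of PSMB5, PSMB6 and PSMB7 in newly built cores, called immunoproteasomes. It also induces PSME1 and PSME2, which form a different cap, PA28. Such particles are known for the peptides they supply to class I molecules of the major histocompatibility complex (MHC).

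All animals were females of a backcross of Iberian x Landrace boars to Landrace sows, raised under the same management and slaughtered at a similar age. Each of the 5 animals of the H group and the 5 of the L group gave 1 array of liver RNA, and no treatment was given. The groups are the extremes of the first principal component of carcass and muscle fatty acid traits. H animals had more polyunsaturated fatty acids in the longissimus muscle, and L animals had more saturated and monounsaturated ones. Some pairs of full sibs and of maternal half-sibs lay in opposite groups. Within a group the mothers differed, but the paper names fewer fathers than animals, so some animals of a group share a father. Which animals are sibs is not given in the labels, so kinship was not modelled. The replicate is the animal, and SDs are over the 5 animals of a group unless stated otherwise.

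The values are log2 intensities, with a lowest value of 2.19 and array medians of 3.78 to 3.85. The hepatocyte markers matched the liver label: 11 of 12 were measured, at 10.56 for HNF4A to 15.57 for ALB. The GAPDH control probe sets at the 3' end exceeded those at the 5' end, a difference that grows as RNA degrades, by 1.96 ± 0.28 in H and 1.99 ± 0.42 in L on the log2 scale. Animal L1 had the highest difference, 2.70, followed by H2 with 2.39, and L2 had the lowest, 1.68. In bulk liver RNA, fewer cells of a type and less RNA per cell cannot be told apart. Array values of different probe sets are not on a common scale of abundance, so the genes are compared between animals and not with each other.

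The first comparison asked whether the proteasome genes differ between the livers of H and L animals. They were slightly lower in H for most members, but for none did the difference pass the test. With limma and Benjamini-Hochberg adjustment over all 4730 genes, 0 of 39 members had an adjusted p under 0.05, and the same held for 0% of all genes. The smallest adjusted p of a member was 0.985. At an unadjusted p under 0.05, 1 member, PSMB3, was lower in H, where 1.84% of all genes were, and 0 members were higher, where 0.803% of all genes were. In 0 of the 39 did every H animal lie below every L animal, against 0.254% of all genes, and in 0 did every H animal lie above every L animal, against 0.106%.

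The log2 difference, H minus L, was below 0 in 36 of 39 members, while 62.8% of all genes were below 0. The median difference was -0.11 over the members and -0.04 over all genes. Without H3 the medians were -0.06 and -0.04, and without L3 they were -0.07 and -0.03. The members vary together from animal to animal, so 36 is not a count of independent genes. Without animal L3 the count was 28 of 39, beside 59.7% of all genes, and over the removal of each animal it ran from 28 to 37. The 95% interval of the difference included 0 for 38 of the 39 members, with a median distance of 0.26 from the estimate to its bounds. For 38 members the whole interval lay within 1 log2 unit of 0, PSMD4 being the exception.

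**Figure D1:**
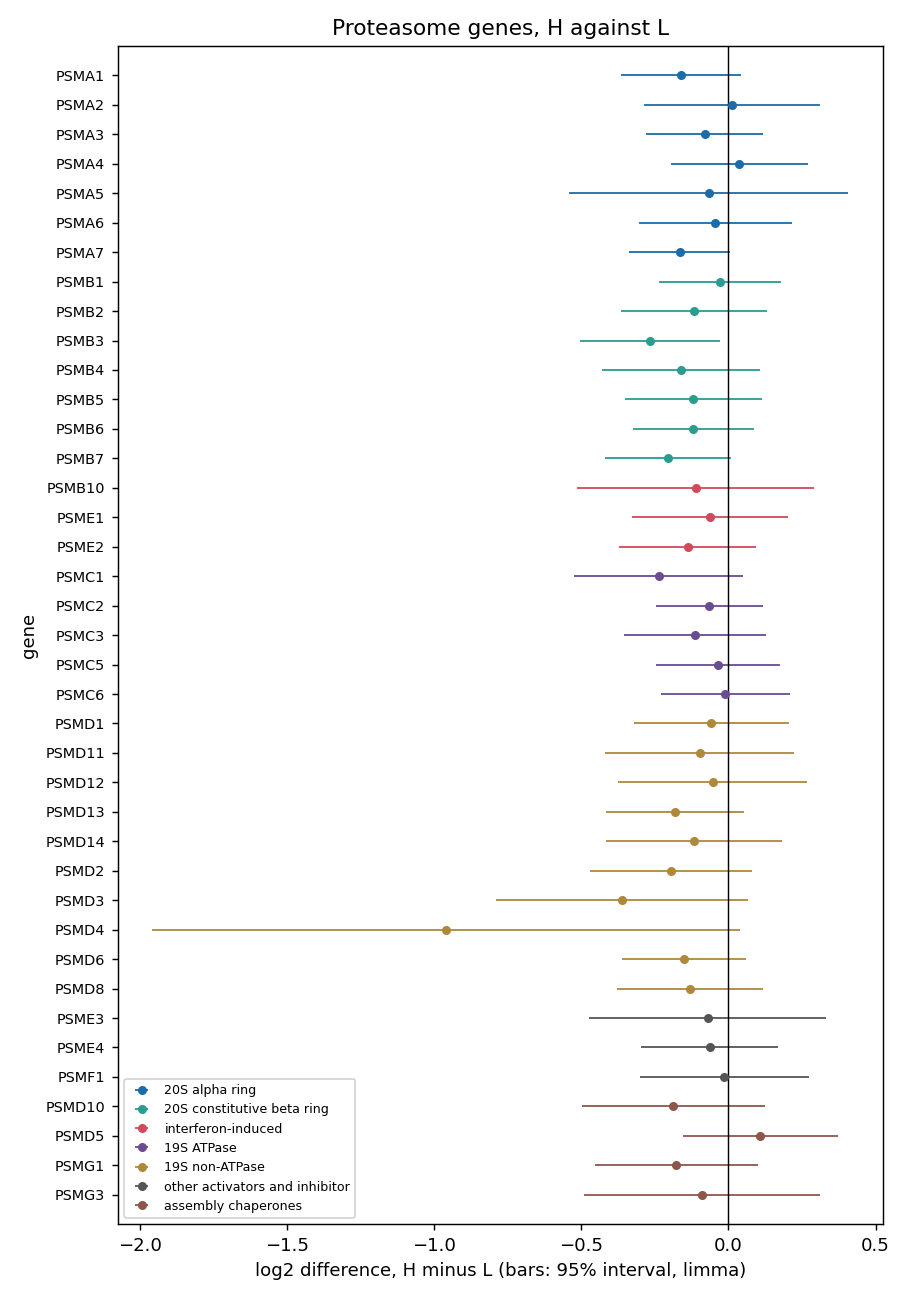
Log2 difference, H minus L, of each of the 39 proteasome genes (points) with its 95% interval from limma (bars), grouped by place in the particle and coloured by class; the line marks 0. Of the points, 36 lie left of 0, the intervals of 38 genes reach 0, and the interval of PSMD4 is the widest.

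The constitutive beta ring holds the active sites, and its 7 genes all had a difference below 0, with a median of -0.12. The median was -0.07 without H3 and -0.18 without H5. PSMB3, a beta subunit without an active site, had the smallest p of the members. Its log2 values were 8.89, 8.94, 8.56, 8.74 and 8.96 in H1 to H5 and 8.92, 9.01, 9.34, 9.12 and 9.03 in L1 to L5. H3 was the lowest and L3 the highest animal, and the groups overlapped, since L1 lay below H2 and H5. The difference was -0.27 with an SE of 0.11 (limma, unadjusted p = 0.0323, adjusted p = 0.985), and the unadjusted p was under 0.05 in 6 of the 10 fits that each left out 1 animal, the exceptions being those without H3, H4, L3 or L4.

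PSMB5, PSMB6 and PSMB7 carry the 3 kinds of active site of the standard core. PSMB5, the chymotrypsin-like subunit, had values of 10.45, 10.58, 10.17, 10.41 and 10.52 in H1 to H5 and of 10.59, 10.34, 10.65, 10.72 and 10.43 in L1 to L5. H3 lay lowest and L4 highest, with a difference of -0.12 (SE 0.10) between overlapping groups. PSMB6, the caspase-like subunit, had values of 10.87, 10.89, 10.58, 10.58 and 10.95 in H1 to H5 and of 10.86, 10.95, 10.83, 10.91 and 10.91 in L1 to L5. Animals H3 and H4 lay below all others, the L animals were close together (SD 0.04, against 0.18 in H), and the difference was -0.12 (SE 0.09).

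PSMB7, the trypsin-like subunit, had values of 11.04, 11.11, 11.05, 11.13 and 11.27 in H1 to H5 and of 11.10, 11.21, 11.56, 11.38 and 11.38 in L1 to L5. L3, L4 and L5 lay above every H animal, while L1 lay below H2. The difference was -0.21 (SE 0.10; limma, unadjusted p = 0.0580, adjusted p = 0.985). Of the other beta subunits, the difference was -0.03 for PSMB1, -0.12 for PSMB2 and -0.16 for PSMB4, with SEs of 0.09, 0.11 and 0.12.

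The alpha rings, which gate the core and dock its caps, had 5 of 7 differences below 0 and a median of -0.07. The median was -0.13 without H5, -0.12 without L1, -0.11 without L5, -0.04 without H3, -0.03 without L2 or L4, -0.02 without H1 and 0.02 without L3. PSMA7 was the alpha gene with the smallest p. Its values were 12.97, 12.97, 12.84, 12.86 and 13.12 in H1 to H5 and 13.03, 13.17, 13.23, 13.06 and 13.09 in L1 to L5. All H animals but H5 lay below all L animals, and the difference was -0.17 (SE 0.08; limma, unadjusted p = 0.0580, adjusted p = 0.985).

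PSMA4 and PSMA2 were the alpha genes with a difference above 0. PSMA4 had values of 11.04, 10.97, 10.95, 11.12 and 11.39 in H1 to H5 and of 11.01, 11.25, 11.12, 10.88 and 11.04 in L1 to L5. H5 was the highest and L4 the lowest, and the difference of 0.04 (SE 0.10) was smaller than the SD of either group. PSMA2 had values of 11.10, 11.16, 11.34, 11.46 and 11.65 in H1 to H5 and of 11.06, 11.58, 11.53, 11.26 and 11.23 in L1 to L5, with a difference of 0.01 (SE 0.13). Of the alpha genes PSMA5 varied most over the 10 animals, with an SD of 0.35 and values from 8.68 in H1 to 9.66 in L3, and its difference was -0.07 (SE 0.21).

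Of the 5 interferon-induced subunits, PSMB10, PSME1 and PSME2 were measured. Their differences between H and L were all below 0, with a median of -0.11, and none passed the test. The median of these 3 genes was -0.04 without L2, -0.05 without L4, -0.06 without H2 or H3, -0.07 without H4 and -0.19 without L1. PSMB10, the induced trypsin-like subunit, had values of 8.11, 7.51, 7.43, 7.51 and 7.97 in H1 to H5 and of 7.37, 8.11, 7.73, 8.10 and 7.77 in L1 to L5. H1, L2 and L4 were high and close together, L1 and H3 were low, and the groups overlapped over nearly their whole range. The difference was -0.11 (SE 0.18; limma, adjusted p = 0.985).

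PSME1 and PSME2 form the PA28 ring together. PSME1 had values of 10.01, 9.83, 10.03, 10.05 and 10.26 in H1 to H5 and of 9.79, 10.40, 10.09, 10.17 and 10.05 in L1 to L5, so the lowest and the highest animal, L1 and L2, were both in L. Its difference was -0.06 (SE 0.12). PSME2 had values of 9.24, 9.40, 9.02, 9.31 and 9.36 in H1 to H5 and of 9.21, 9.55, 9.40, 9.59 and 9.27 in L1 to L5, with H3 lowest, L4 and L2 highest and a difference of -0.14 (SE 0.10).

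PSMB8, the induced counterpart of PSMB5, was left out by the limit on the mean. Its mean was 3.75, while the lowest mean of a gene that passed was 5.94, that of the chaperone gene PSMG3. PSMB8 had values of 3.03, 4.11, 3.44, 2.97 and 3.42 in H1 to H5 and of 2.89, 3.48, 5.55, 5.23 and 3.35 in L1 to L5. L3 and L4 stood above the other 8 animals, which lay at 4.11 or below, and the group means were 3.39 ± 0.45 and 4.10 ± 1.20. No test is given for it. No probe set carried the symbol PSMB9 alone in the annotation used, and PSMA8, PSMC4, PSMD7, PSMD9, PSMG2 and PSMG4 were also not measured here.

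**Figure D2:**
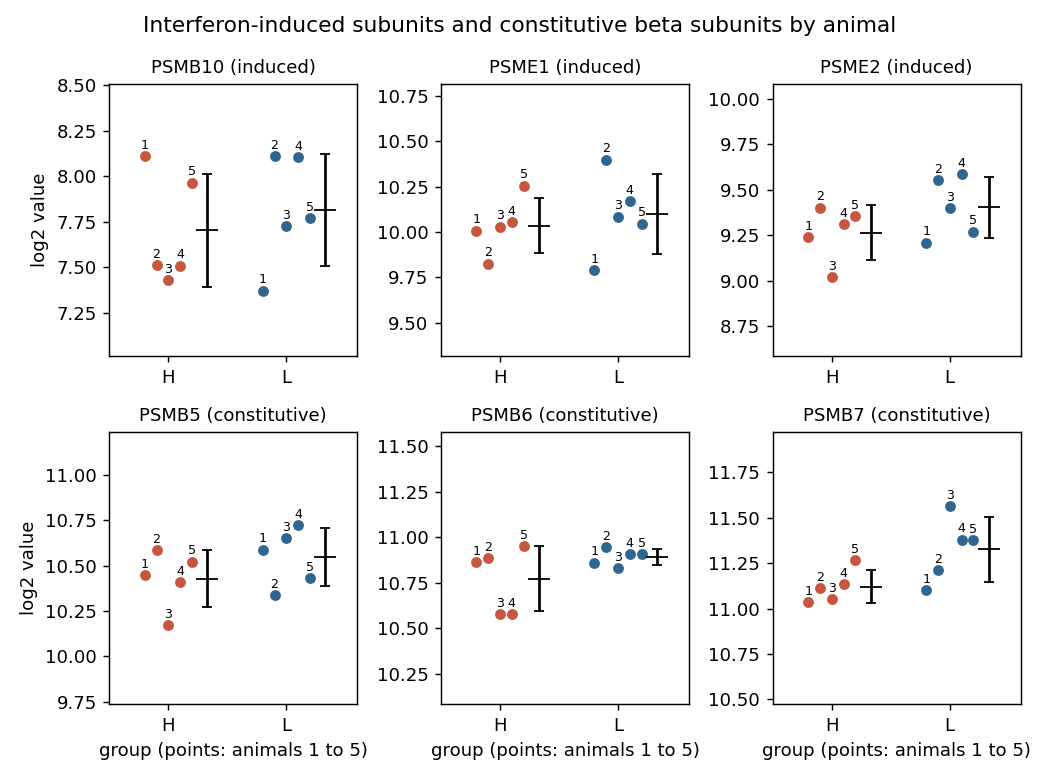
Log2 values of PSMB10, PSME1 and PSME2 (top row) and of PSMB5, PSMB6 and PSMB7 (bottom row) in each animal (numbered points) of H and L; black marks show the group mean and the bars its SD over 5 animals. Every panel spans the same number of log2 units; the groups overlap in all 6 genes, and PSMB10 spreads more over the animals (SD 0.30) than the other 5.

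Whether the RNA of the induced subunit, set against that of its constitutive counterpart, differed between H and L was asked within each array. The arrays read RNA, so they do not show which subunits the particles held. Only 1 of the 3 pairs, PSMB10 and PSMB7, had both genes measured. The log2 value of PSMB10 minus that of PSMB7 was -2.93, -3.60, -3.63, -3.63 and -3.30 in H1 to H5 and -3.73, -3.10, -3.84, -3.28 and -3.61 in L1 to L5. H1 had the highest and L3 the lowest value, and the groups overlapped. The means were -3.42 ± 0.31 in H and -3.51 ± 0.31 in L, a difference of 0.09 (SE 0.20; exact permutation test, two-sided, p = 0.627, where the smallest p the design allows is 0.00794). The sign of this difference was not stable, since it ran from -0.03 to 0.20 when each animal was left out.

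The ATPases of the cap, which unfold the substrate, were all 5 below 0, with a median difference of -0.06, or -0.04 without H3. PSMC1 had a difference of -0.24 (SE 0.13), and its values ran from 8.88 to 9.37 in H and from 9.04 to 9.52 in L. The others lay between -0.11 for PSMC3 and -0.01 for PSMC6. PSMC2 varied least of all members, with an SD of 0.11 over the 10 animals. Its value is an average of several probe sets that did not fully vary together, which lowers the SD, while most members have a single set.

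The 10 other subunits of the cap were also all below 0, with a median of -0.14, or -0.09 without L3. PSMD4, a receptor that binds ubiquitin chains, varied most of all 39 members, with an SD of 0.91. Its values were 5.09, 5.33, 6.87, 6.36 and 6.42 in H1 to H5 and 7.55, 6.16, 7.83, 6.01 and 7.33 in L1 to L5. H1 and H2 were lowest and L3, L1 and L5 highest, while L2 and L4 lay among the H animals. The group means were 6.02 ± 0.77 and 6.97 ± 0.83, a difference of -0.96 (SE 0.45; limma, unadjusted p = 0.0580, adjusted p = 0.985) with a 95% interval from -1.96 to 0.04.

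PSMD3, a subunit of the lid of the cap, is given in full because its order of animals nearly matched that of PSMD4, which was seen in the values. It had values of 8.88, 9.005, 9.53, 9.39 and 9.53 in H1 to H5 and of 9.86, 9.31, 10.02, 9.20 and 9.77 in L1 to L5. The same 3 L animals stood highest and the same H animals lowest as in PSMD4, over a narrower range, and the difference was -0.36 (SE 0.19). For the scaffold subunits PSMD1 and PSMD2 the difference was -0.06 (SE 0.12) and -0.20 (SE 0.12). For PSMD14, the deubiquitinase that removes ubiquitin chains at the cap, it was -0.12 (SE 0.13). The remaining subunits of the lid, PSMD6, PSMD8, PSMD11, PSMD12 and PSMD13, lay between -0.18 and -0.05.

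Of the alternative activators, PSME3 forms a nuclear ring and PSME4 a single large cap, while PSMF1 binds the core and was first described as its inhibitor. Their differences were -0.07, -0.06 and -0.01, with SEs of 0.18, 0.10 and 0.13, and their median of -0.06 was above 0 without H1 or without L3 and -0.11 without H2. In L, PSME3 was 6.25, 6.24, 6.89, 6.27 and 6.24, so L3 stood well above 4 animals that were nearly equal.

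The chaperones assemble the particle and leave it: PSMG1 and PSMG3 help to build the alpha ring, and PSMD5 and PSMD10 the base of the cap. PSMD5 had the highest difference of the 39 members. Its values were 9.53, 9.48, 9.06, 9.73 and 9.52 in H1 to H5 and 9.41, 9.50, 9.24, 9.28 and 9.35 in L1 to L5. H4 lay highest and H3 lowest of all 10 animals, and the difference was 0.11 (SE 0.12; limma, adjusted p = 0.985). The differences of PSMD10, PSMG1 and PSMG3 were -0.19, -0.18 and -0.09, with SEs of 0.14, 0.13 and 0.18.

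The next comparison was between animals, whatever their group. L3 had the highest value of the 10 animals in 22 of 39 members, where it had the highest value in 19.6% of all genes. H3 had the lowest value in 17 members, where it had the lowest in 10.7% of all genes. These animals were singled out after the values were seen. The median deviation of the members from their own means was 0.27 in L3 and -0.17 in H3, and between -0.11 in H1 and 0.11 in H5 in the other 8 animals. The same median over all genes lay between -0.06 and 0.05 in every animal. L3 lay above a gene's own mean in 36 of the 39 members and in 58.9% of all genes. The members below their mean in L3 were PSMB6, PSMB10 and PSMD5, which were named after the values were seen.

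L3 also had high means of other lists, each gene centred on its own mean: 0.54 over the 27 measured interferon-stimulated genes, 0.36 over 9 genes of Kupffer cells and macrophages and 0.39 over 5 genes of T and NK cells. For H3 the same means were -0.20, 0.18 and 0.11. The GAPDH difference was 1.72 in L3 and 1.70 in H3, near each other and near the lowest of the 10 animals. The part of other cell types or of RNA quality in the deviations of L3 and H3 was not tested.

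**Figure D3:**
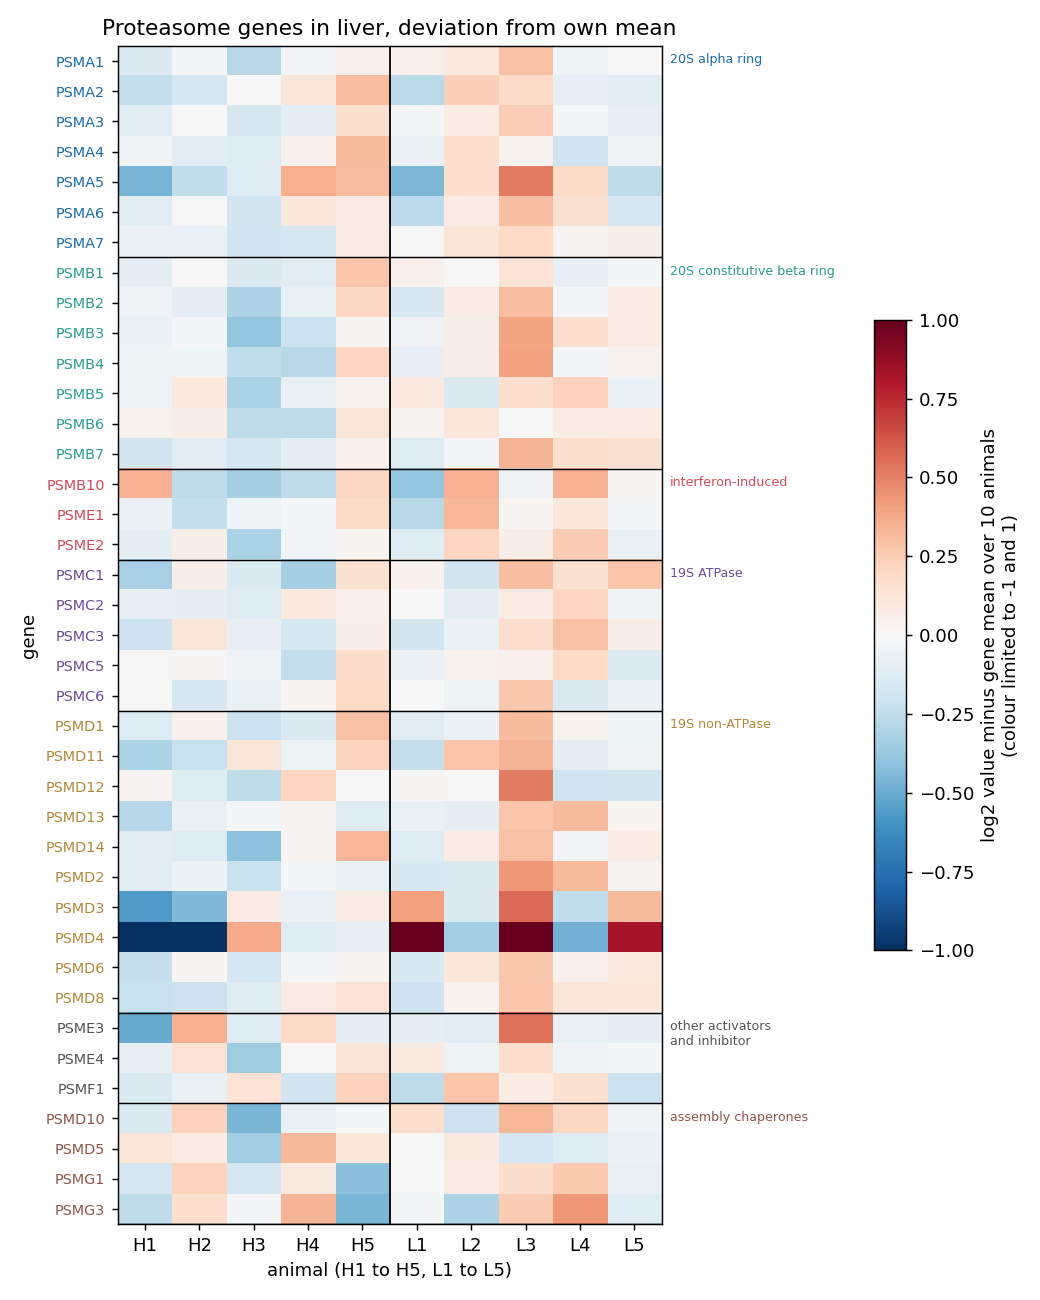
Log2 value minus the gene's mean over the 10 animals, for the 39 proteasome genes (rows, grouped by class) in each animal (columns, H left of the line and L right of it); red is above and blue below the mean, with colours limited to -1 and 1. The column of L3 is red in most rows and that of H3 blue in most, and PSMD4 has the strongest colours of all rows.

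The spread over the animals was small for most members. The median SD over the 10 animals was 0.18 for the members and 0.22 for all genes. The members were brighter, with a median level of 10.00 against 7.89, and SDs were not compared at matched levels. By class it was 0.14 for the ATPases, 0.15 for the alpha rings, 0.17 for the constitutive beta rings, 0.18 for the induced subunits, 0.20 for the other activators and inhibitor, 0.21 for the other subunits of the cap and 0.23 for the chaperones. The highest SDs of single members were 0.91 for PSMD4, 0.37 for PSMD3, 0.35 for PSMA5 and 0.30 for PSMB10.

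Subunits of one particle were then compared in how they varied together over the 10 animals. Over the 741 pairs of members the median Pearson r was 0.43, while over 11169901 pairs of all genes it was 0.03. In 38 pairs r was at least 0.8, which is 5.13% of the pairs of members, where 0.765% of all pairs of genes reached it. Without L3 these were 26 pairs and the median r was 0.31, and with each group centred on its mean they were 43 pairs and 0.39. Pairs share genes, arrays and animals, so the shares are descriptions. The members were also brighter than all genes, and r was not compared at matched levels.

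The median r was 0.64 among the constitutive beta genes, 0.61 among the alpha genes and also 0.61 over the 3 pairs of induced subunits. It was 0.57 both between the alpha and the constitutive beta genes and between the alpha genes and the non-ATPase subunits of the cap. Among those subunits of the cap it was 0.47, and among the ATPases 0.31. The chaperones had class medians between 0.01 and 0.16 against the other classes, with 1 of the 4 apart. PSMD5 had the lowest median r with the other 38 members, -0.02, followed by 0.09 for PSMG3 and 0.11 for PSMG1. PSMD10 had 0.48, and its closest partner was PSMB5, with r = 0.950. Outside the chaperones PSMD4 had the lowest median r with the other members, 0.23, and PSMD3 had 0.30.

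PSMD3 and PSMD4 were the pair with the highest r. Over the 10 animals r was 0.990 and Spearman's rho was 0.988, both with a permutation p of 1e-05, the smallest that 100000 resamples can give, and an adjusted p of 0.00741 over the 741 pairs. The relation did not rest on the extreme animals, since r was 0.980 without H1 and L3, and it did not rest on the groups, since r was 0.987 with each group centred. The next pairs were PSMB2 with PSMD14 (r = 0.956, rho = 0.927; permutation, adjusted p = 0.0272 and 0.0734), PSMB5 with PSMD10 (r = 0.950, rho = 0.903; permutation, adjusted p = 0.0222 and 0.0734) and PSMA7 with PSMB4 (r = 0.921, rho = 0.927; permutation, adjusted p = 0.0370 and 0.0734). In all, 15 pairs had an adjusted p of r under 0.05, all with r above 0. For rho 1 pair had one, that of PSMD3 and PSMD4. The share of all pairs of genes with such a p is not given. Without H5 and L3, r of PSMA3 fell from 0.907 to 0.641 with PSMD1 and from 0.906 to 0.674 with PSMB4. Without H3 and L3, r was 0.912 for PSMB2 with PSMD14. It was 0.948 for PSMB5 with PSMD10 without H3 and L4, and 0.851 for PSMA7 with PSMB4 without H3 and H4. PSMA2 with PSMD11 (r = 0.900) used an average of 2 PSMD11 probe sets, which had r = -0.20 and were not tested singly.

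**Figure D4:**
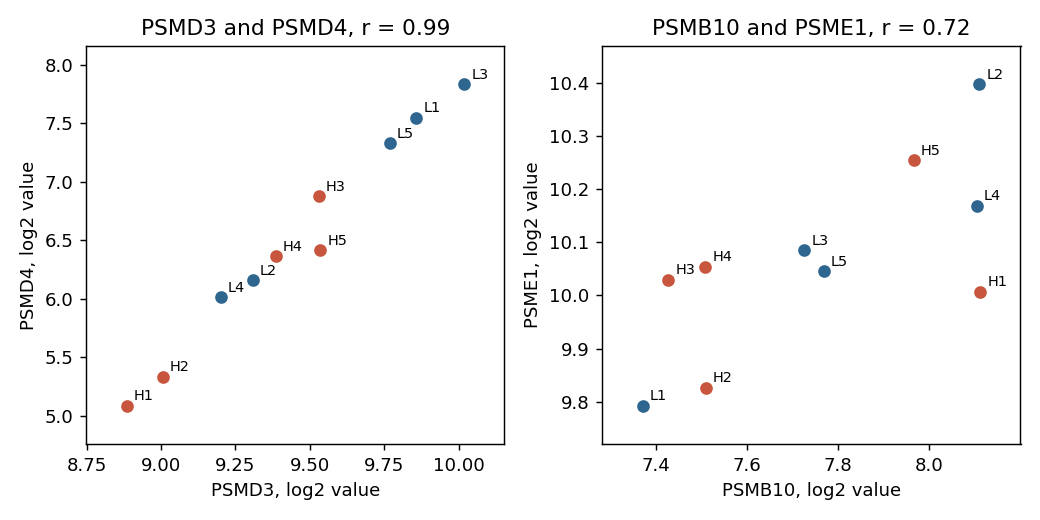
Log2 values of PSMD4 against PSMD3 (left) and of PSME1 against PSMB10 (right) in the 10 animals, labelled by animal, with H in red and L in blue. The points of PSMD3 and PSMD4 follow a line with H and L mixed along its middle (r = 0.990), and those of PSMB10 and PSME1 scatter more widely, with H1, L2 and L4 furthest right and H1 lowest of these (r = 0.724).

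The induced subunits were asked about in the same way, in a family of 16 relations over the 10 animals. All 16 values of r were above 0, and 0 had an adjusted p under 0.05 for r or for rho by permutation, while 1 had an unadjusted p under 0.05 for each. PSMB10 with PSME1 had r = 0.724 (permutation p = 0.0167, adjusted p = 0.268) and rho = 0.539 (permutation p = 0.114, adjusted p = 0.465). Without L1 and H1, the animals farthest from the median of PSMB10, r was 0.811, and without H1 alone it was 0.854 with an adjusted p of 0.0378 by permutation, so H1 decides the call. PSMB10 with PSME2 had r = 0.615 and PSME1 with PSME2 r = 0.516. PSMB10 with its constitutive counterpart PSMB7 had r = 0.298.

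With the mean of the 27 measured interferon-stimulated genes, r was 0.574 for PSME1, 0.482 for PSME2 and 0.340 for PSMB10. PSME1 had a rho of 0.648 with that mean (permutation p = 0.0487, adjusted p = 0.465), and its r was 0.278 without L1 and L2, so the relation rests on those animals. With the mean of 11 MHC class I genes, r was 0.487 for PSME1, 0.255 for PSMB10 and 0.155 for PSME2. With the means of 5 genes of T and NK cells and of 9 genes of Kupffer cells and macrophages, r lay between 0.113 and 0.403. The T and NK list is thin, since 5 of its 23 markers were measured, at 4.90 to 5.96, and its mean ran from -0.36 to 0.28 in H and from -0.20 to 0.40 in L. For Kupffer cells and macrophages 9 of 18 markers were measured, with a mean from -0.39 to 0.18 in H and from -0.28 to 0.36 in L.

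The mean deviation of the 3 induced subunits was 0.07, -0.14, -0.23, -0.10 and 0.14 in H1 to H5 and -0.26, 0.30, 0.02, 0.23 and -0.03 in L1 to L5. L2 and L4 were high and L1 and H3 low, and L3, the highest animal in most members, lay near 0. Of the 4688 genes compared, those most like this mean over the 10 animals were TMEM209 (r = 0.921), the RNA helicase gene MOV10 (r = 0.879), the copper chaperone gene ATOX1 (r = 0.868), MLF2 (r = 0.857) and C5H12orf57 (r = 0.855). They are the top of a ranking over all genes, and the values are a description.

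Of the members, 4 were read by more than 1 probe set, and not all of these sets varied together. Over single probe sets limma gave 0 of 44 member probe sets with an adjusted p under 0.05 (0% of all 11756). At an unadjusted p under 0.05, 1 was lower in H (1.77% of all) and 0 higher (1.32% of all). The difference was below 0 in 40 of the 44. The share of all probe sets below 0 is not given, and that of all genes was 62.8%. The probe sets of PSMD1 had r = 0.928 (permutation, adjusted p = 0.00366 over 6 relations) and differences of -0.02 and -0.09. The 3 sets of PSMC2 had r between 0.273 and 0.650. The sets of PSMD11 had r = -0.20 and those of PSMF1 r = -0.49, and the latter had differences of opposite sign, -0.14 for the brighter and 0.11 for the dimmer set.

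The GAPDH difference was then set beside the values of the members. With its slope fitted beside H against L by limma, 0 of 39 members had an adjusted p under 0.05 (0% of all genes below 0 and 0% above). The slope was below 0 in 31 of 39 members, where it was in 52.3% of all genes, and its median was -0.14 over the members and -0.01 over all genes. At an unadjusted p under 0.05, 6 members had a slope below 0 (6.47% of all genes did) and 0 had one above 0 (4.14%). These 6 were PSME1, PSMD11, PSMA2, PSMA5, PSMD8 and PSMF1. L1 and H2 stood apart in the GAPDH difference, at 2.70 and 2.39, where H1, the next, had 2.08. No slopes are given without L1 or H2. PSME1 had a slope of -0.45 (SE 0.13) in log2 units per log2 unit of the GAPDH difference, and the slopes of PSMD4 and PSMD3 were -0.19 (SE 0.75) and -0.08 (SE 0.32).

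For PSMD11 the slope lay in the dimmer probe set, at -1.25 (SE 0.23; limma, unadjusted p = 0.000449, adjusted p = 0.119), while the brighter had 0.16 (SE 0.12). The dimmer set read 6.61, 6.59, 7.55, 7.14 and 7.56 in H1 to H5 and 6.44, 7.68, 7.59, 6.92 and 6.99 in L1 to L5, with the lowest values in L1, H2 and H1, the animals with the highest GAPDH differences. For PSMF1 the slopes were -1.08 (SE 0.27) for the dimmer and 0.24 (SE 0.12) for the brighter set. PSME1, whose lowest animals were L1 and H2, has 1 probe set only. The part of RNA quality in these values was not tested beyond these slopes. With the GAPDH difference as a covariate 37 of 39 members were lower in H, beside 63.4% of all genes. In that fit by limma 0 members and 0 of all genes had an adjusted p under 0.05. At an unadjusted p under 0.05 there were 2 members, and the share of all genes is not given.

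**Figure D5:**
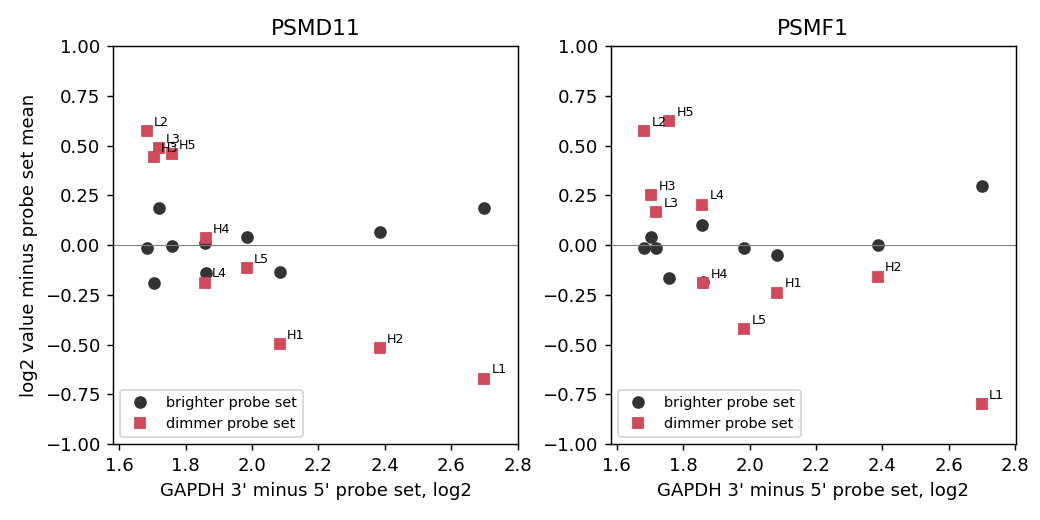
Log2 value minus the mean of the probe set, for the brighter (circles) and dimmer (squares) probe set of PSMD11 (left) and PSMF1 (right), against the log2 difference of the 3' and 5' GAPDH control probe sets of the same animal. The dimmer sets run down from L2 at 1.68 to L1 at 2.70 on the horizontal axis, and the brighter sets do not.

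The genes that act with the proteasome were read in the same fit, in which 0 genes of these lists had an adjusted p under 0.05 by limma. Of all genes, 62.8% had a difference below 0, with a median of -0.04. At an unadjusted p under 0.05 by limma, 1.84% of all genes were lower in H and 0.803% higher. Of 25 partners and regulators 6 were measured, 4 of them below 0, with a median of -0.08. SEM1, a small subunit of the lid, had a difference of -0.17 (SE 0.08), and VCP, the unfoldase that hands over ubiquitin-tagged proteins, -0.13 (SE 0.10), while its cofactor UFD1 had 0.24 (SE 0.19). Of the ubiquitin genes and the enzymes that activate and conjugate ubiquitin, 22 of 33 were measured and 17 were below 0, with a median of -0.05. At an unadjusted p under 0.05, 1 of them was lower in H, UBE2A, and 1 higher, UBE2B, which encode closely related conjugating enzymes. UBE2A was 8.40 ± 0.02 in H and 8.58 ± 0.14 in L, and UBE2B 11.28 ± 0.10 in H and 11.03 ± 0.22 in L.

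Of the 18 targets of NRF2, a factor that responds to oxidants and also acts on proteasome genes, 13 were measured and 10 were below 0, with a median of -0.07. PGD, an enzyme of the pentose phosphate pathway, was 6.45 ± 0.08 in H and 6.71 ± 0.20 in L (limma, unadjusted p = 0.0266, adjusted p = 0.985). The 11 measured of 19 genes of MHC class I presentation take over the peptides the proteasome makes. All 11 were below 0, with a median of -0.18. L3 had the highest mean of this list, 0.27, with each gene centred on its own mean. SLA-2, a class I heavy chain, was 11.45 ± 0.26 in H and 12.02 ± 0.31 in L (difference -0.57, SE 0.17; limma, unadjusted p = 0.00728, adjusted p = 0.985), and TAP1, a subunit of the transporter that carries the peptides, had a difference of -0.27 (SE 0.19). Class I heavy chains are near-identical copies, so their probe sets may read more than 1 gene. Of 53 interferon-stimulated genes 27 were measured, 20 of them below 0 with a median of -0.05, and 0 had an unadjusted p under 0.05.

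Of the 9 measured markers of Kupffer cells and macrophages 8 were below 0, with a median of -0.23, and FCER1G, a signalling chain of Fc receptors, had an unadjusted p of 0.0187 (difference -0.41, SE 0.15; limma, adjusted p = 0.985). All 5 measured markers of T and NK cells were below 0, with a median of -0.20. Of all genes, 62.8% were below 0, with a median of -0.04. The centred list mean of L3 was 0.36 for Kupffer cells and macrophages and 0.39 for T and NK cells. Both were at or near the highest of the 10 animals, and the list medians are not given without L3. Of the B and plasma cell list 1 of 11 was measured, JCHAIN, with a difference of -0.41 (SE 0.36), of the neutrophil list 0 of 11, and of the endothelial list 4 of 11, with a median of -0.07. Other lists had medians above 0. For stellate cells and fibroblasts, 6 of 10 markers were measured, 1 of them below 0, with a median of 0.06. The 2 measured of 6 cholangiocyte markers had a median of 0.09, and HBB, the 1 measured of 7 erythroid markers, had a difference of 0.29 (SE 0.16). In the marker lists other than that of Kupffer cells and macrophages 0 genes had an unadjusted p under 0.05 by limma. The part of these cells in the differences of the proteasome genes was not tested.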

How the data were processed

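Liver RNA of 10 female pigs was hybridised to Affymetrix GeneChip Porcine arrays. Scanner output was taken from GCOS and normalized with GCRMA by the authors, tools that the submitters' processing notes also name, and the deposited table holds log2 values of 24123 probe sets without raw intensities. GCRMA leaves probe sets without signal near a common lowest value, so the size of changes in dim genes is uncertain. Arrays have no read depth, and their number limits the precision.

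Control probe sets were left out, and of 23999 porcine probe sets 10069 carried 1 symbol in the platform annotation, 9961 of which were matched to a reference name table by Entrez ID. No coordinates or sequences are given. Probe sets averaging 4 or more over the arrays were averaged per gene. The comparison of H with L used the functions lmFit and eBayes of limma 3.58.1 (R 4.3.3), without covariates and two-sided, after the script was tested on simulated data, with Benjamini-Hochberg adjustment over 4730 genes or 11756 probe sets. Permutation tests used 100000 resamples or exact enumeration (Python 3.11.15, numpy 2.4.6, scipy 1.17.1). Alternatives changed the normalization, the filter, the choice of probe sets, covariates, weights, prior and animals. The slopes on the GAPDH difference and the alternatives for all pairs of members were added after the values were seen.

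The members and lists were chosen with earlier results of these data known. All members are named. Values in every animal are given for the induced subunits, their constitutive counterparts and the 3 members with the smallest p in each direction; of each list at most the 3 genes with the smallest p and the 5 genes most like the induced mean are named.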

Additional observations from a re-analysis of the deposited data

Results flagged for a closer look

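Each member, PSMB8 and the value of PSMB10 minus that of PSMB7 were looked at within H and within L for an animal whose gap to the nearest other, divided by the range of the 5, was above Dixon's 95% limit of 0.71. Of 82 groups tested 2 were found, both for L3, and chance gives about 1 in 20. For PSMD12, a subunit of the lid, the ratio was 0.711, with 9.67 in L3 and 9.17 in the nearest L animal. For PSME3, the nuclear activator, it was 0.961, with 6.89 in L3 and 6.27 in the nearest L animal.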

How the results depend on the processing

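The count of members with an adjusted p under 0.05 by limma was 0 under every setting run. At an unadjusted p under 0.05 by limma the count lower in H, 1 as reported, was 3 without the filter on low values. It was 2 with the GAPDH covariate, 2 with a trended and robust prior, and 0 to 4 with each animal left out (0 without H4 or L3). The shares of all genes at that p are not given for these settings, so the counts are descriptions. The count higher in H ran from 0 to 1 (1, PSMD5, without H3), that of probe sets from 0 to 4, and that of relations of the induced subunits from 0 to 1. The spread of the constitutive beta ring was 0.121 by the scaled MAD, against 0.172 by the SD. Of all alternative values, 20 moved beyond their limits and 1 became stronger. The sign differed in 48 of 1230, among them the class medians of the alpha ring and of the other activators and inhibitor, and PSMB10 minus PSMB7. None of the single results run under these alternatives had passed an adjusted test in the first place. Centring the arrays on their medians left 34 of 39 members lower in H, beside 57.7% of all genes. The labels do not say whether the numbers pair animals. The deviations of animals with the same number had r of -0.24 to 0.28, which cannot decide whether they are sibs. With the number as a replicate block 36 members were lower in H, beside 62.8% of all genes. In that fit 1 member, PSMD4, had an unadjusted p under 0.05 by limma, and PSMB3 did not. The share of all genes at that p is not given for this fit either. Dim genes such as PSMB8 lie too near the lowest value for their changes to be sized.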
